A study of Mus musculus with 12 samples.

Results

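The cytochrome P450 genes of the mouse Cyp2a and Cyp2b subfamilies, with Nr1i3, the gene of the constitutive androstane receptor (CAR), were followed across 12 liver arrays. The 7 genes Cyp2a4, Cyp2a5, Cyp2a12, Cyp2b9, Cyp2b10, Cyp2b13 and Nr1i3 were sought by the gene name that the array files give each probe. That name matched 8 of 55681 probes and 6 of the 7 genes. The genes were chosen from their levels on these same arrays, earlier results being known, so levels under each treatment are given as a description, without a test.

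Liver RNA of male ICR mice, 5 weeks old when obtained and adapted for 1 week, was labelled with Cy3 and hybridised to 1-colour Agilent arrays. The 6 groups at each of day 2 and day 7 were G0s2 siRNA, control siRNA, ATRA+DEN, DEN, ATRA and vehicle (water), with 1 array per group. Diethylnitrosamine (DEN, a liver carcinogen) was drunk at 80 mg/L and all-trans retinoic acid (ATRA, a vitamin A derivative that binds nuclear receptors) at 30 mg/L. An siRNA against G0s2 (an inhibitor of triglyceride lipolysis) or a scrambled control siRNA was injected into a vein at 1.6 nmol with a lipid carrier, on the day before DEN by the protocol. The labels of the siRNA arrays do not say whether those mice drank DEN, and no label says whether an array holds 1 animal or a pool. With no replicates within a group, errors come from matched pairs of arrays (SDs over pairs, and SEs of the fit between days), and single values carry none.

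Cyp2a and Cyp2b enzymes are membrane-bound monooxygenases of the hepatocyte that oxidise drugs, nicotine, coumarin, steroids and other lipophilic compounds. CAR is a nuclear receptor that, once in the nucleus, pairs with the retinoid X receptor and switches on drug metabolism genes, and Cyp2b10 is its classical target in mouse liver. Cyp2b9, Cyp2b13 and Cyp2a4 are also known for higher expression in female than in male mouse liver, a difference that follows the pattern of growth hormone release.

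The P450 genes lie in 1 cluster on chromosome 7, and 2 pairs within it are near copies, which bears on what a probe can measure. Both probes named Cyp2a4 carry accessions of Cyp2a4 and of Cyp2a5, and no probe is named Cyp2a5, so these 2 genes were read together and are called Cyp2a4/5 here. The coding probe of Cyp2a4/5 (probe 1, mm9, chromosome 7, 27098659 to 27099724, spanning an exon junction) and the coding probe of Cyp2b9 (mm9, chromosome 7, 26983484 to 26983543) are given here, since the main differences rest on them.
Cyp2a4/5 probe 1: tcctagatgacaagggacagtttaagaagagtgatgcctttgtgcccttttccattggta
Cyp2b9 probe: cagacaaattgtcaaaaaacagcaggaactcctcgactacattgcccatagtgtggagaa
The remaining probes lie at 27099880 to 27099939 (Cyp2a4/5 probe 2), 27821770 to 27821829 (Cyp2a12), 26711522 to 26711581 (Cyp2b10) and 26880905 to 26880964 (Cyp2b13) on chromosome 7 of mm9. The Nr1i3 probes lie on chromosome 1, at 173147776 to 173147835 (probe 1) and 173148765 to 173148824 (probe 2).

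The promoter windows of the near copies show how alike their starts are. Each runs from 250 bases before to 50 bases after the annotated start (RefSeq, GRCm38.p6, plus strand), and capitals mark the bases that differ within a pair. Cyp2a4 lies at chr7:26306942-26307241, Cyp2a5 at chr7:26835089-26835388, Cyp2b9 at chr7:26173159-26173458 and Cyp2b13 at chr7:26061245-26061544.
Cyp2a4: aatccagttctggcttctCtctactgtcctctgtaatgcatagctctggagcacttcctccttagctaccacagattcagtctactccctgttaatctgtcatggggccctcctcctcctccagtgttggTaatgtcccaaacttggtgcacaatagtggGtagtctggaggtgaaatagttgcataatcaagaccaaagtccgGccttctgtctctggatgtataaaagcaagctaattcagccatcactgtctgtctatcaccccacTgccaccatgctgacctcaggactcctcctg
Cyp2a5: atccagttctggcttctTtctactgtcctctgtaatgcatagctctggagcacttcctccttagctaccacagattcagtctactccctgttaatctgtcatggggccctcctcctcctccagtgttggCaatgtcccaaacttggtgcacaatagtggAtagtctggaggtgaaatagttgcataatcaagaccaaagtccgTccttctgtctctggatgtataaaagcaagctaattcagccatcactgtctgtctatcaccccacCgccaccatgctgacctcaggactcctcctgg
Cyp2b9: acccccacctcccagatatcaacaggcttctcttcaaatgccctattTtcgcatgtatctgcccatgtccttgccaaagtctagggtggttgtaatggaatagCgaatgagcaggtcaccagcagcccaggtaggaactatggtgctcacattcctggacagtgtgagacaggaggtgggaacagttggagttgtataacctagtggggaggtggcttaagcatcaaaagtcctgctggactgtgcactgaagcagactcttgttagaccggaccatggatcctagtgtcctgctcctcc
Cyp2b13: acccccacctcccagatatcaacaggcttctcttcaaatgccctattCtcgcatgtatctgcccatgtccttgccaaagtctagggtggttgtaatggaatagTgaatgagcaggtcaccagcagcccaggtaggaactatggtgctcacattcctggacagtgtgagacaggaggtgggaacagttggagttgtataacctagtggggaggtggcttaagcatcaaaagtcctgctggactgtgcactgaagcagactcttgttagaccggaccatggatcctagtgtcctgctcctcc
Cyp2a4 and Cyp2a5 shared 294 of 299 aligned bases (98.3%), with the substitutions C19T, T131C, G161A, G205T and T270C from Cyp2a4 to Cyp2a5, counted from 1 at the 5′ end of the Cyp2a4 window. Cyp2b9 and Cyp2b13 shared 298 of 300 (99.3%), with T48C and C104T from Cyp2b9 to Cyp2b13, counted in the same way in the Cyp2b9 window. The Cyp2b10 window (chr7:25897408-25897707, plus strand), which is the more divergent of the Cyp2b starts, aligned with Cyp2b9 at 77.2% identity over 289 bases with 9 inner gaps.
Cyp2b10: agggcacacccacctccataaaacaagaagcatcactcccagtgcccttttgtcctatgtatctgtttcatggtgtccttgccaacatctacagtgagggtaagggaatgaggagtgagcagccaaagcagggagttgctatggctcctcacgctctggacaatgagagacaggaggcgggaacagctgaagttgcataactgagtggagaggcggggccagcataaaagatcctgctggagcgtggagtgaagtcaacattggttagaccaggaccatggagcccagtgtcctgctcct
The nuclear receptor half-site AGGTCA, searched on both strands, stood 138 bases before the start in Cyp2b9 and Cyp2b13, and on the reverse strand 30 and 29 bases after the start in Cyp2a4 and Cyp2a5. It was in none of the Cyp2b10, Cyp2a12 and Nr1i3 windows and in 16.26% of all 32851 windows of this length. A TATAAA box stood 28, 29 and 39 bases before the start in Cyp2a4, Cyp2a5 and Cyp2a12, and in 13.62% of all windows. No window of the 7 genes held TTCNNNGAA, the core bound by STAT5 (8.3% of all windows), or 2 AGGTCA copies on 1 strand with 4 bases between them (0.02%). These matches describe the windows only.

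Levels are log2 processed intensities minus the 75th percentile of their array, so 0 is that percentile and 1 unit is a 2-fold step. A probe counts as measured on an array where the scanner software calls it well above background. Between 41.0% and 50.7% of probes were so called on an array and 0 were saturated, with a median processed intensity of 13.1 to 18.2, and 29302 probes that were well above background on at least 2 arrays were tested. The 10 hepatocyte markers, among them albumin, were well above background on all 12 arrays with mean levels of 8.61 to 9.12. Of 4 pancreas markers 1 (Cela2a) was tested, at 0.51 in vehicle of day 2 against -6.12 to -1.82 on the other day-2 arrays. On that vehicle array, used in the day-2 DEN and ATRA pairs, 2 of 4 red cell markers were also highest by at least 2-fold (0.515% of all tested probes). The arrays lie on 4 slides: slide 1 holds the day-2 arrays without siRNA, slide 2 the day-2 siRNA arrays, slide 3 the day-7 DEN and vehicle arrays and slide 4 the other day-7 arrays. Day and slide therefore cannot be told apart, and each day-7 ATRA pair spans 2 slides. For 3 day-7 arrays the treatment characteristic goes against the title, and titles were used. G0s2 itself had a level of 1.80 in the G0s2 siRNA array against 3.64 in the control siRNA array at day 2, and 2.04 against 3.22 at day 7. Its lowest level was on another array, 0.27 in ATRA+DEN at day 2, with 3.16 in DEN, 2.94 in ATRA and 4.14 in vehicle.

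The widest spreads among these genes belonged to Cyp2a4/5 and the Cyp2b genes, and the narrowest to Nr1i3. From the lowest to the highest array Cyp2b10 spanned 6.03 log2 units and Cyp2a4/5 5.90 (probe 1) and 5.66 (probe 2), wider than at least 99.4% of the tested probes. Cyp2b13 spanned at least 7.92 and Cyp2b9 at least 5.49, bounds because their lowest arrays were not well above background. Cyp2a12 spanned 2.69, wider than 83.7% of tested probes, while the Nr1i3 probes spanned 1.23 and 1.5, wider than 38.9% and 51.6%. The plot of levels by array shows that the lone highest points are mostly control siRNA arrays and that the lowest Cyp2a4/5 points are ATRA+DEN arrays.

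**Figure D1:**
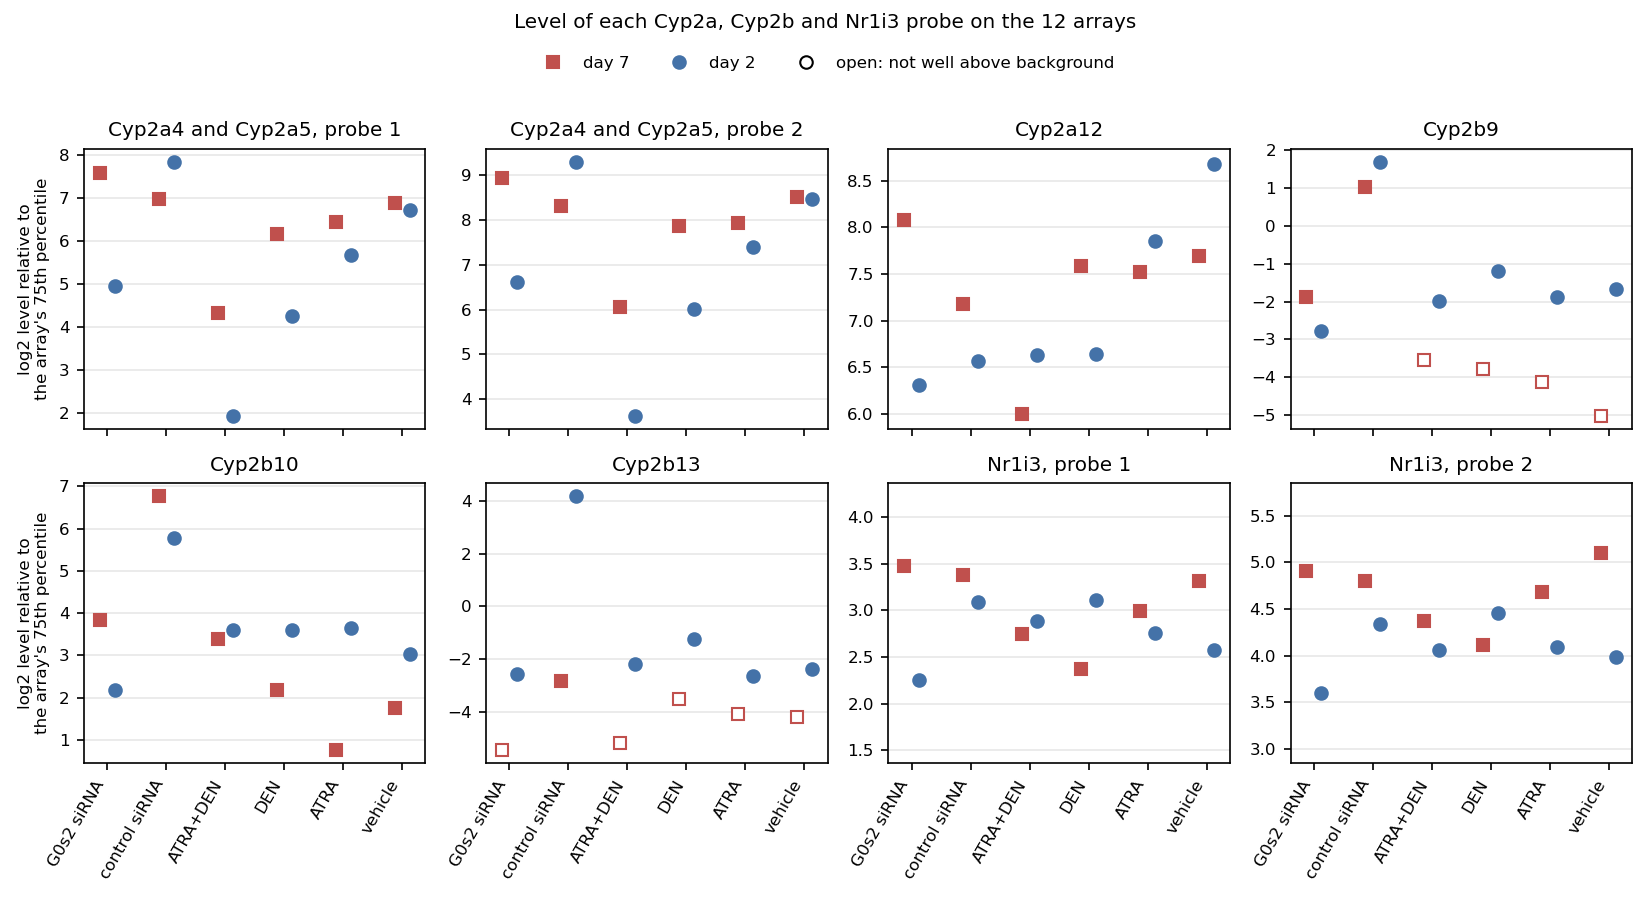
Level of each probe (log2 relative to the array's 75th percentile, y axis) in the 6 groups (x axis), with squares for day 7, circles for day 2 and open symbols where the probe was not well above background. Each symbol is 1 array, grouped by title: the control siRNA arrays are the highest of their day for Cyp2b9 and Cyp2b10, and ATRA+DEN the lowest for Cyp2a4/5 on both days.

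With arrays grouped by title, Cyp2a4/5, enzymes that hydroxylate coumarin and steroids, had lower levels in each array with DEN than in its matched array without it. The same held for each array with ATRA against its matched array without it. Probe 1 at day 2 had a level of 1.94 in ATRA+DEN, 4.26 in DEN, 5.68 in ATRA and 6.73 in vehicle. At day 7 it had 4.34 in ATRA+DEN, 6.16 in DEN, 6.45 in ATRA and 6.88 in vehicle. By the titles, the order of the 4 groups was thus the same on both days. The combined treatment stood well below the rest, and the single treatments of day 7 stood within 0.72 of vehicle.

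Within pairs, the DEN difference of probe 1 was -2.47 against vehicle and -3.74 against ATRA at day 2, and -0.72 and -2.10 at day 7 (mean -2.26, SD 1.24, n = 4 pairs). Probe 2, at higher levels throughout, gave a mean of -2.19 (SD 1.29). These are 5.53-fold, 13.3-fold, 1.64-fold and 4.30-fold lower levels for probe 1. The ATRA difference of probe 1 was -1.05 against vehicle and -2.32 against DEN at day 2, and -0.43 and -1.82 at day 7 (mean -1.40, SD 0.83, n = 4 pairs). By the titles, the DEN difference was larger in the presence of ATRA on each day. The same arrays then make the ATRA difference larger in the presence of DEN by the same amount, so these are not separate observations. This difference of differences was not tested with 1 array per group. The DEN and ATRA comparisons use the same arrays and are not independent of each other.

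The day-7 values of the Cyp2a genes depend on the titles of 3 arrays. With those groups taken from the treatment characteristic instead, the mean ATRA difference was -0.50 for probe 1 and -0.55 for probe 2. That of Cyp2a12 was then 0.14, against -0.65 by the titles. The day-7 order of the groups and the direction within day-7 pairs also rest on the titles. So does the place of ATRA+DEN as the lowest day-7 array. At day 2, where title and characteristic agree, the values above stand.

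By the titles, the ATRA+DEN array was the lowest of its day by at least 2-fold on both days for both Cyp2a4/5 probes. For probe 1 it was lower by 2.32 and 1.82 log2 units. In all, 4 of the 29302 tested probes (0.0137%) were so. This count was made after the values were seen. Another of the 4 is an unnamed probe on chromosome 7 (mm9, 27737339 to 27737398) that matches 52 of 56 aligned bases of Cyp2a4/5 probe 2. It had levels of 3.46 and 5.82 in ATRA+DEN at day 2 and day 7, against 8.32 and 8.29 in vehicle, so it is not an independent reading.

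Cyp2a12, a relative with its own probe, had a level of 6.63 in ATRA+DEN, 6.64 in DEN, 7.85 in ATRA and 8.68 in vehicle at day 2. At day 7 the levels were 6.00, 7.59, 7.52 and 7.69 in the same order. It was lower with DEN in all 4 pairs, by -2.04 and -1.22 at day 2 and by -0.10 and -1.52 at day 7 (mean -1.22, SD 0.82, n = 4 pairs). The ATRA+DEN and DEN arrays of day 2 had nearly the same level (-0.01), where Cyp2a4/5 probe 1 differed by -2.32.

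Among the P450 neighbours in the cluster, Cyp2g1, an enzyme best known from olfactory tissue, had a pattern like that of Cyp2a4/5. Its level at day 2 was -4.58 (not well above background) in ATRA+DEN, -2.93 in DEN, -0.22 in ATRA and 0.07 in vehicle. At day 7 it was not well above background in ATRA+DEN and DEN, against -0.31 in ATRA and -0.77 in vehicle. Its correlation with Cyp2a4/5 probe 2 over the 12 arrays, after the mean of each day's 6 arrays was removed, was r = 0.857 (rho = 0.909). Cyp2f2, the lung and liver P450 at the cluster's other end, had levels of 8.98 to 9.67 on every array and a mean DEN difference of -0.40 (SD 0.15, n = 4 pairs). Of 7 tested genes of the cluster neighbour list, 1 (Cyp2g1) was at least 2-fold lower with DEN in all 4 pairs, against 0.0307% of all tested probes.

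**Figure D2:**
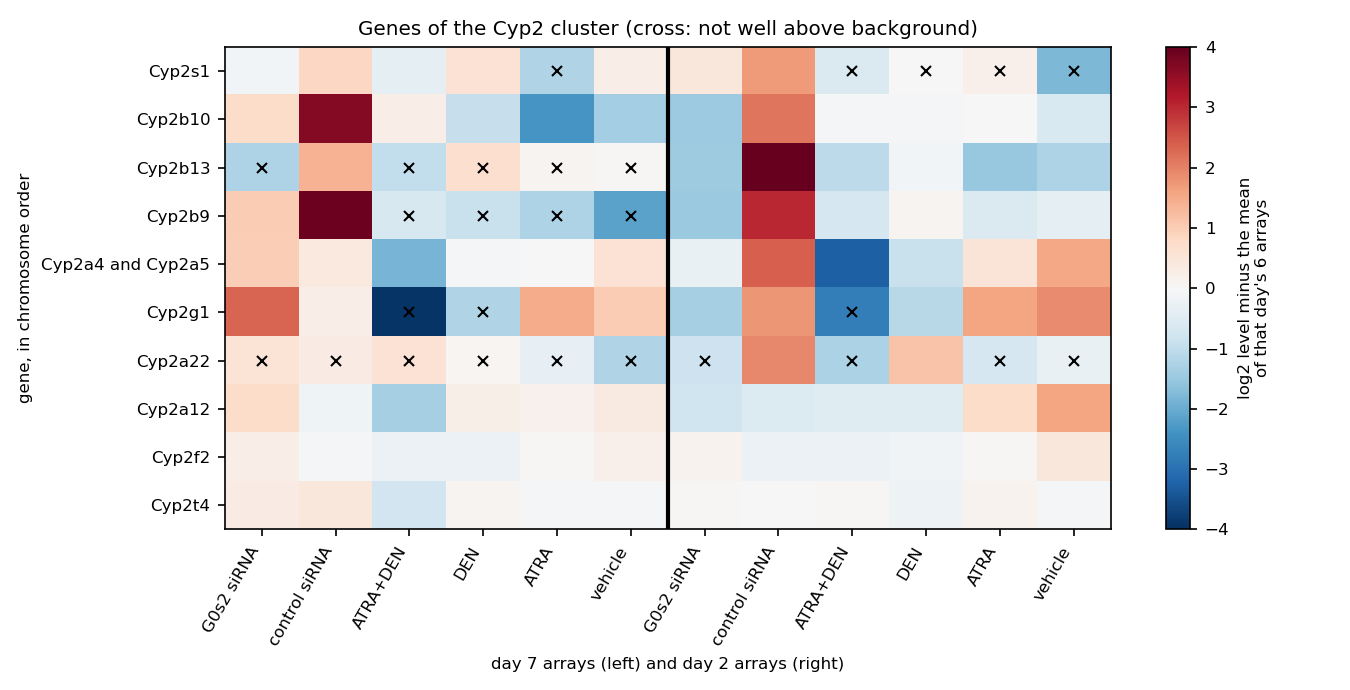
Level minus the mean of that day's 6 arrays (log2, colour) for genes of the Cyp2 cluster in chromosome order (rows, Cyp2a5 being read with Cyp2a4) on each array (columns, day 7 left, day 2 right), with crosses where a probe was not well above background. Cyp2a4/5 and Cyp2g1 are low in ATRA+DEN, the Cyp2b genes are high in control siRNA, and Cyp2f2 and Cyp2t4 vary less.

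Cyp2b10, the CAR target, did not follow Cyp2a4/5 under DEN and ATRA. At day 2 its level was 3.61 in ATRA+DEN, 3.61 in DEN, 3.66 in ATRA and 3.03 in vehicle. At day 7 it was 3.38 in ATRA+DEN, 2.19 in DEN, 0.76 in ATRA and 1.76 in vehicle. The day-2 arrays lay close together, whereas at day 7 ATRA+DEN was 6.16-fold above ATRA and ATRA was 2-fold below vehicle. With DEN the level differed by 0.58 against vehicle and -0.06 against ATRA at day 2, and by 0.43 and 2.62 in the day-7 pairs (mean 0.89, SD 1.18, n = 4 pairs), so its mean lay within 1 SD of 0. The mean was 0.32 without the day-7 ATRA+DEN and ATRA pair, and 0.18 with the day-7 groups taken from the treatment characteristic.

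Cyp2b9 and Cyp2b13, low in male liver, stood near the limit of the arrays without siRNA. Cyp2b9 had a level of -1.98 in ATRA+DEN, -1.19 in DEN, -1.88 in ATRA and -1.68 in vehicle at day 2. Cyp2b13 had -2.20, -1.24, -2.66 and -2.39 in the same order. At day 7 neither was well above background in any of these 4 groups, so day-7 DEN and ATRA differences could not be given.

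No member probe was at least 2-fold apart in 1 direction in all 4 DEN pairs, which 0.109% (higher) and 0.0307% (lower) of all tested probes were. None was so in all 4 ATRA pairs (0.0375% and 0.00341%). In single pairs the members past 2-fold were mostly lower and mostly of the Cyp2a subfamily. For DEN against vehicle at day 2, 3 of the 8 member probes were at least 2-fold lower (both of Cyp2a4/5 and Cyp2a12; 2.24% of tested probes) and 1 higher (Cyp2b13; 1.99%). For ATRA+DEN against ATRA the same 3 were lower at day 2 (1.78%) with 0 higher (1.75%), and 3 were lower at day 7 (1.99%) with 1 higher (Cyp2b10; 1.95%). For DEN against vehicle at day 7 there were 0 in either direction (4.5% lower and 3.87% higher). For ATRA against vehicle at day 2, 2 were lower (Cyp2a4/5; 2.18%) and 0 higher (2.11%), and at day 7, 1 was lower (Cyp2b10; 1.68%) and 0 higher (1.45%). For ATRA+DEN against DEN, 2 were lower at day 2 (Cyp2a4/5; 1.99%) with 0 higher (2.33%), and 3 were lower at day 7 (3.58%) with 1 higher (Cyp2b10; 3.04%).

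In the fits over all probes (limma, Benjamini-Hochberg) 0 probes passed for DEN, ATRA or G0s2 siRNA (with normexp background correction 17 for DEN and 4 for G0s2 siRNA, and 2 for G0s2 siRNA without the day-2 pair), while 3395, 1690 and 2005 had an unadjusted p under 0.05, where 1465 are expected by chance. Red cell genes differed with DEN too: 3 of the 4 markers, the globins, were lower in all 4 pairs (Hbb-b1 by a mean of -2.15) and Alas2, the red cell enzyme of haem synthesis, was higher in all 4 (mean 2.04). The mean level of the 4 was 2.90, 2.45, 2.08 and 2.83 on the DEN and ATRA+DEN arrays of day 2 and day 7, against 4.97, 3.12, 3.10 and 2.60 on their vehicle and ATRA arrays. In bulk tissue, fewer cells of a type and less RNA per cell cannot be told apart, and the part of this in the P450 values was not tested.

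The siRNA arrays gave the largest differences of these genes, and they were in the Cyp2b subfamily. Cyp2b13 had a level of -2.56 in G0s2 siRNA against 4.19 in control siRNA at day 2, a difference of -6.75. Cyp2b9 had -2.78 against 1.70 at day 2 and -1.87 against 1.04 at day 7, that is 22.4-fold and 7.51-fold lower. Cyp2b10 had 2.19 against 5.78 at day 2 and 3.85 against 6.78 at day 7, that is 12-fold and 7.60-fold lower. At day 7 Cyp2b13 was not well above background in G0s2 siRNA and had -2.84 in control siRNA, at least 1.37-fold lower. The mean differences over the 2 pairs were -3.70 (SD 1.11) for Cyp2b9 and -3.26 (SD 0.47) for Cyp2b10, and these 2 of 8 member probes were at least 2-fold lower in both pairs, against 0.215% of tested probes, with 0 higher in both (0.242%). At day 2 alone 5 of 8 were lower (1.54%) and 0 higher (1.61%), and at day 7 alone 2 were lower (1.59%) and 0 higher (2.04%).

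The control siRNA arrays were the highest of their day for these genes, and at day 7 the G0s2 siRNA array came next for Cyp2b9 and Cyp2b10. Cyp2b9 was higher in control siRNA than in the next highest array of its day by 2.88 at day 2 and 2.91 at day 7, and Cyp2b10 by 2.11 and 2.93. Cyp2b13 was higher by 5.43 at day 2 and by at least 0.40 at day 7, where no other array was well above background. Against vehicle of the same day, Cyp2b10 in control siRNA was higher by 2.75 at day 2 and 5.02 at day 7, while in G0s2 siRNA it stood at -0.84 relative to vehicle at day 2 and at 2.10 at day 7. Cyp2b9 at day 7 was at least 2.57-fold higher than vehicle in G0s2 siRNA and at least 19.31-fold in control siRNA. The siRNA and vehicle arrays lie on different slides. Against vehicle, 4.12% of tested probes were at least 2-fold higher and 4.95% lower in control siRNA at day 2, and 4.14% and 6.81% at day 7. In G0s2 siRNA it was 3.49% higher and 3.26% lower at day 2, and 5.35% and 7.46% at day 7. In all, 6 of 29302 tested probes (0.0205%) were highest in control siRNA by at least 2-fold on both days, a count made after the values were seen. They were Cyp2b9, Cyp2b10, an unnamed probe of the cluster (mm9, chromosome 7, 26771212 to 26771271, between the Cyp2b10 and Cyp2b13 probes), and Lyz2, Adgre1 and Sla, the first 2 of which are macrophage genes.

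**Figure D3:**
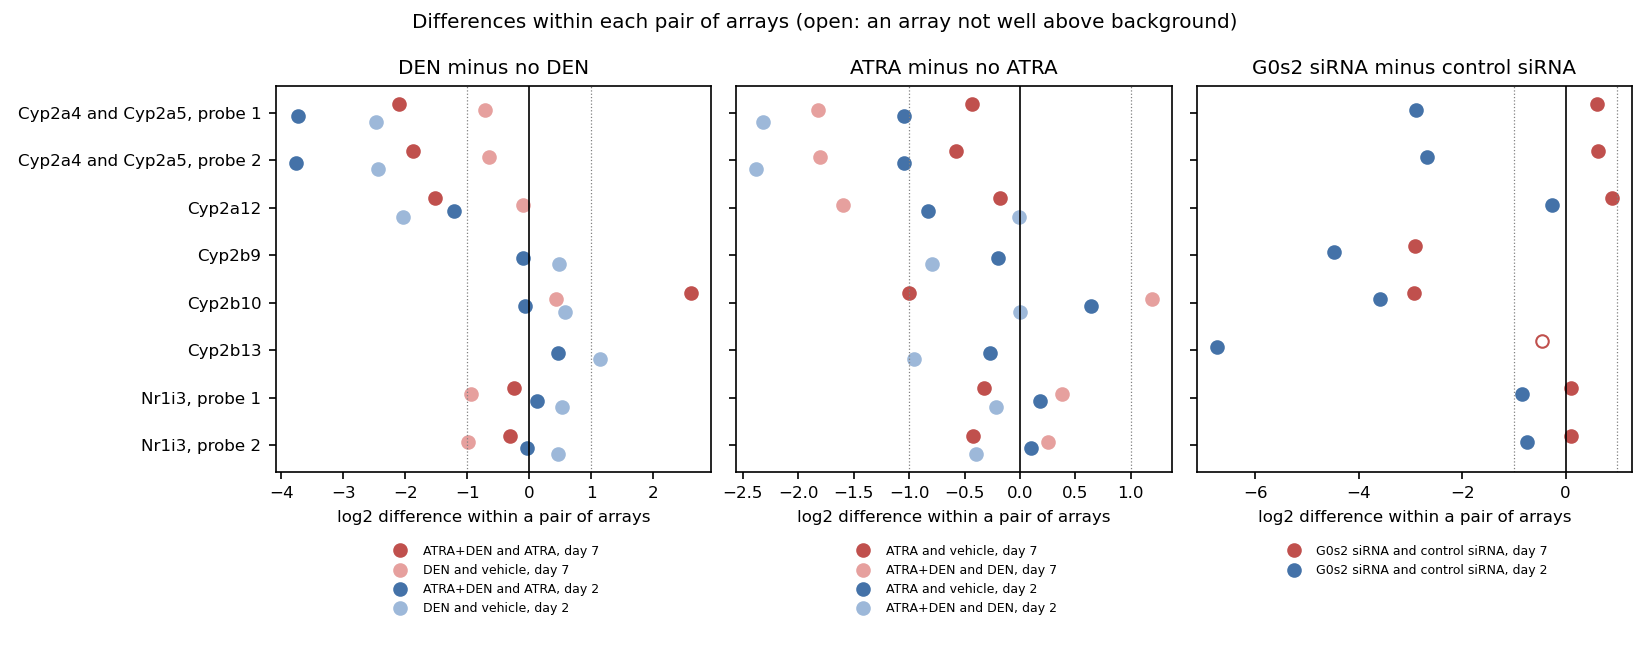
Difference within each matched pair of arrays (log2, x axis) for each probe (rows), for DEN against no DEN, ATRA against no ATRA and G0s2 siRNA against control siRNA, with red points for day 7, blue for day 2, open points where an array was not well above background and dotted lines at a 2-fold difference. With arrays grouped by title, Cyp2a4/5 and Cyp2a12 lie left of 0 in all DEN and ATRA pairs, and Cyp2b9 and Cyp2b10 lie left of -1 in both siRNA pairs.

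Cyp2a4/5 did not keep 1 direction with G0s2 siRNA. Probe 1 had 4.95 in G0s2 siRNA against 7.84 in control siRNA at day 2, and 7.57 against 6.97 at day 7. The difference was thus 0.60 at day 7 and -2.90 at day 2. Relative to vehicle, the day-2 levels lay on both sides, at -1.78 in G0s2 siRNA and 1.12 in control siRNA. Cyp2a12 had 6.31 against 6.57 at day 2 and 8.08 against 7.18 at day 7.

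Nr1i3, the receptor gene, varied little beside the Cyp2b genes. Probe 1 had 2.25 in G0s2 siRNA against 3.09 in control siRNA at day 2 and 3.48 against 3.38 at day 7, and probe 2 had 3.60 against 4.34 and 4.91 against 4.80. Without siRNA, probe 2 had 4.06 in ATRA+DEN, 4.46 in DEN, 4.09 in ATRA and 3.99 in vehicle at day 2, and 4.37, 4.11, 4.68 and 5.10 in the same order at day 7. The 2 probes ran together (r = 0.946 over the 12 arrays after removal of day means). Nr1i3 probe 1 was 1.79-fold lower in G0s2 siRNA at day 2, where Cyp2b10 was 12-fold lower. Transcript level does not report where the receptor protein is.

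Among other genes known as CAR targets, 1 was at least 2-fold lower in both siRNA pairs (0.215% of all tested probes) and 0 higher (0.242%). Of 33 tested genes of a 37-gene CAR target list (without the 7 genes here), 8 were higher and 12 lower in both siRNA pairs, where 36.0% of all tested probes were higher and 21.2% lower, with a median difference of -0.04 against 0.06 over all tested probes. That gene was Slco1a4, an organic anion transporter, by -1.68 in each pair. Next came Cyp2c37, an arachidonic acid P450, at -1.09 (SD 0.14), Gstt3, a glutathione transferase, at -1.21 and -0.79 in the pairs, and Cyp1a2, a P450 of aromatic amines, at -0.86 (SD 1.01). Under DEN 4 of the 33 were higher and 4 lower in all 4 pairs (9.13% and 11.9% of all tested probes), with Gsta2, a glutathione transferase, at 1.30 (SD 1.21), Ephx1, the microsomal epoxide hydrolase, at 0.76 (SD 0.06) and Alas1, the first enzyme of haem synthesis, at -1.30 (SD 1.17). Under ATRA 3 were higher and 3 lower in all 4 pairs (5.90% and 8.06%), and Por, the reductase that feeds electrons to P450s, was at 0.53 (SD 0.37). By level, the mean of the 33 was highest of its day in control siRNA on both days. At day 2 it was 4.53 in G0s2 siRNA and 4.76 in control siRNA, against 4.18 to 4.46 without siRNA. At day 7 it was 5.16 and 5.21, against 4.43 to 4.70.

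Of 31 partners and regulators of CAR, 10 were higher and 7 lower in both siRNA pairs (36.0% and 21.2% of all tested probes), with none at least 2-fold apart in both. Nr1i2, the pregnane X receptor, was at 0.21 at day 2 and 1.78 at day 7. Under DEN 1 was higher and 9 were lower in all 4 pairs (9.13% and 11.9% of all tested probes). The higher one was Nfe2l2, the oxidant-response factor NRF2, at 1.42 (SD 0.73). Among the lower were Hsp90aa1, a chaperone, at -0.52 (SD 0.30), Cebpa, a hepatocyte transcription factor, at -0.35 (SD 0.15) and Ncoa1, a nuclear receptor coactivator, at -0.28 (SD 0.14). Of 28 other tested P450 genes, all of the Cyp1 and Cyp2 families, 9 were higher and 8 lower in both siRNA pairs. Their median was 0.02, and 0 were at least 2-fold apart in both. P450s of other families, in the sex-biased lists below, did pass 2-fold in both pairs. Among them, Cyp4a10 was lower, at -1.78 and -1.74, and Cyp7b1 higher, at 1.96 and 1.20.

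Genes with a sex difference in mouse liver stood apart with the Cyp2b genes on the day-2 control siRNA array. The mean level of 20 female-biased genes (without the genes here) was -0.71 in G0s2 siRNA against 1.95 in control siRNA at day 2, and lay between -0.60 and 0.75 on the other 4 day-2 arrays. That of 24 male-biased genes was 5.21 against 4.14, and 4.97 to 5.23 on the other 4. Of the female-biased genes 6 of 20 were highest on that array by at least 2-fold, against 0.348% of all tested probes, and of the male-biased genes 7 of 24 were lowest, against 0.188%. These counts were made after the values were seen. A1bg, a female-biased gene, was well above background only on this array and on ATRA of day 2, so it passed the 2-array filter through this array. A gene that passes in this way favours the female-biased count.

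Single genes, also named after their values were seen, show the size of this. A1bg, a plasma glycoprotein gene well above background on only 2 of 12 arrays, had -4.93 (not well above background) in G0s2 siRNA against 4.66 in control siRNA at day 2. Some female-biased genes went the other way. Adam11 had 0.67 against -0.99, and Cyp17a1 had 6.12 against 5.63. Of the 20 female-biased genes 1 was lowest in control siRNA at day 2 by at least 2-fold, against 0.188% of all tested probes. Among the male-biased genes Elovl3, a fatty acid elongase, had 1.77 against -0.61, and Cyp7b1, an oxysterol hydroxylase, had 7.00 against 5.04. At day 7 the female-biased mean was -1.25 in G0s2 siRNA and -0.67 in control siRNA, the highest of that day, and 3 of the 20 genes were highest there by at least 2-fold, against 0.259% of all tested probes. The male-biased mean was 5.57 in G0s2 siRNA and 5.34 in control siRNA. In both siRNA pairs 11 of the 20 female-biased genes were lower and 1 higher with G0s2 siRNA (21.2% and 36.0% of all tested probes). Of the 24 male-biased genes 18 were higher and 3 lower. At least 2-fold in both pairs, 4 female-biased genes were lower and 0 higher (0.215% and 0.242%). For the male-biased genes it was 2 higher and 0 lower. The Cyp2b13 difference at day 2 and these lists thus stood out on the same array, and the part of one in the other was not tested.

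The sex label of that array was checked against sex chromosome genes. Both Xist probes, which mark the inactive X chromosome, were not well above background on the day-2 control siRNA array (-5.69 and -5.80). The Y-linked gene Ddx3y had 1.87 there, against 1.75 to 2.03 on the other 5 day-2 arrays. On the day-7 control siRNA array 1 of the 2 Xist probes was well above background, at -3.19, with Ddx3y at 2.46.

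Markers of liver macrophages (Kupffer cells) differed on the siRNA arrays as well. Their mean level over 8 genes, all well above background on all 12 arrays, was 3.58 in G0s2 siRNA and 4.29 in control siRNA at day 2, against 2.14 to 2.36 on the other 4 day-2 arrays. At day 7 it was 1.91 in G0s2 siRNA and 2.79 in control siRNA, against 2.30 to 2.63. With 1 probe per gene all 8 were lower with G0s2 siRNA in both pairs (21.2% of all tested probes), and Marco, a scavenger receptor, was at -2.13 (SD 0.13, n = 2 pairs). A second Adgre1 probe had 0.35 in G0s2 siRNA against 1.75 in control siRNA at day 2, and -1.15 against -0.06 at day 7. The part of these cells in the Cyp2b values was not tested.

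**Figure D4:**
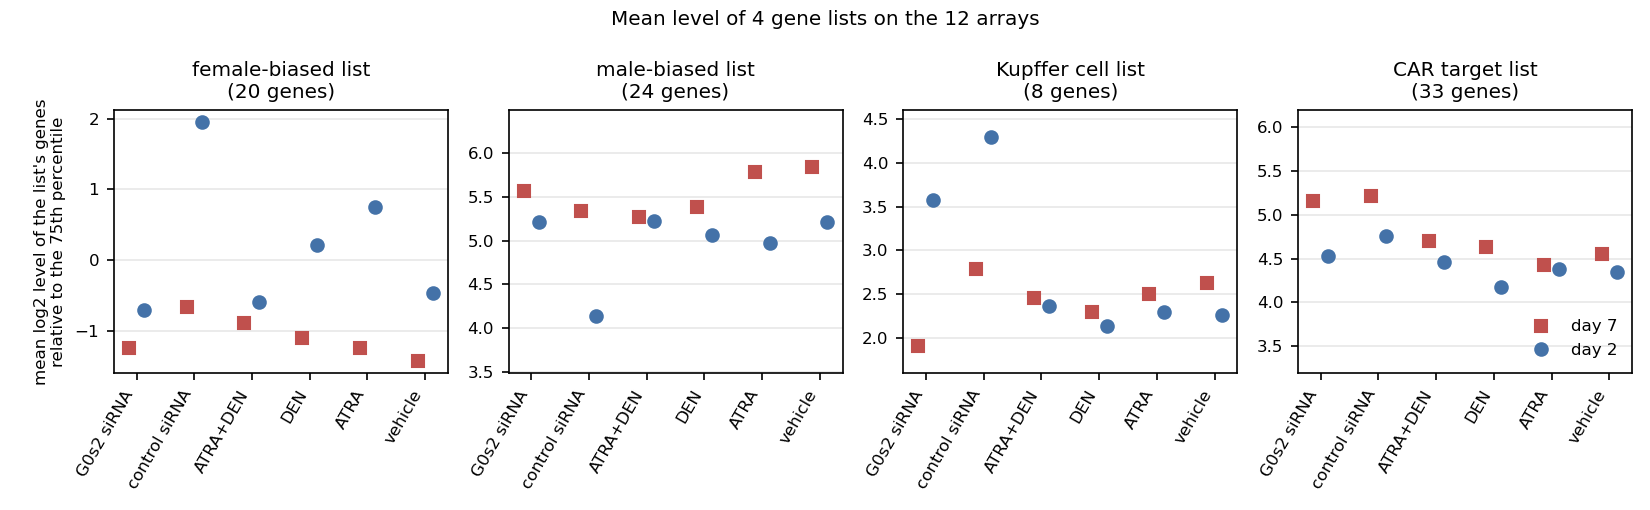
Mean level of the genes of 4 lists (log2 relative to the array's 75th percentile, y axis) in the 6 groups (x axis), with squares for day 7 and circles for day 2. The day-2 control siRNA array has the highest female-biased mean (1.95), the lowest male-biased mean (4.14) and the highest Kupffer cell mean (4.29). The CAR target mean varies between 4.18 and 5.21 and is also highest of its day in control siRNA, at 4.76 at day 2 and 5.21 at day 7.

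Between the days, 6 arrays against 6 with treatment as a block, 43.6% of all tested probes passed (limma, Benjamini-Hochberg, adjusted p under 0.05), 21.5% higher and 22.1% lower at day 7, on slides that differ by day. With slide as a random block 5632 probes passed, against 12763. Cyp2b13 and Cyp2b9 were well above background on all 6 day-2 arrays but on 1 and 2 of the 6 day-7 arrays, so no test between days is given for them. From measured values, Cyp2b13 in control siRNA had -2.84 at day 7 against 4.19 at day 2, a 130-fold lower level. In DEN, Cyp2b9 was at least 6.09-fold and Cyp2b13 at least 4.87-fold lower at day 7 than at day 2.

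Of the 6 other probes 0 passed between days, where 43.6% of all tested probes did. Cyp2b13 and Cyp2b9, set aside above for dim day-7 values, were under the threshold in that fit. The 0 thus covers a part of the members, all well above background on all 12 arrays, and the share covers all tested probes, dim ones included. The p-values below describe the probes only, since the genes were chosen with earlier results known and day cannot be told apart from slide. Cyp2a4/5 probe 1 was higher at day 7 in 5 of 6 treatments (1.16, SE 0.47, limma adjusted p = 0.0836). Control siRNA was the exception, at 6.97 at day 7 against 7.84 at day 2. Leaving out that exception gave a mean of 1.57, which the choice of what to leave out itself raises. Nr1i3 probe 2 was higher in 5 of 6 treatments (0.57, SE 0.22, limma adjusted p = 0.0692), with DEN the exception. Cyp2b10 (-0.53, SE 0.58, limma adjusted p = 0.488) was lower at day 7 in the 4 treatments without siRNA and higher in both with it. Cyp2a12 was at 0.23 (SE 0.37, limma adjusted p = 0.639). Of the 33 CAR target genes, 10 passed as higher and 2 as lower at day 7, against 21.5% and 22.1% of all tested probes.

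Likeness over all arrays was measured by Pearson's r over the 12 arrays, after removal of the mean of each day's 6 arrays, among 17101 probes of named genes well above background on at least 6 arrays. The values describe arrays that share slides and treatments and carry no test. Closest to Cyp2a4/5 probe 2 after probe 1 (r = 0.997) were Ndn, a growth suppressor gene (r = 0.877), Serpina6, which encodes corticosteroid-binding globulin (r = 0.876), and Cyp2g1. Closest to Cyp2b9 were Cyp2b10 (r = 0.936), Mat1a, the liver methionine adenosyltransferase (r = 0.931), Wfdc17 (r = 0.909) and Akap1, a mitochondrial anchoring protein (r = 0.905). Closest to Cyp2b10 were Mat1a (r = 0.954), Cyp2b9, Akap1 (r = 0.916) and Wfdc17 (r = 0.895). Mat1a had 5.22 in G0s2 siRNA against 6.24 in control siRNA at day 2, and 5.98 against 6.98 at day 7.

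Closest to Cyp2b13 were Itga8, an integrin subunit (r = 0.944, rho = 0.804), Bmper (r = 0.872), Fmo4 (r = 0.868) and Rsbn1 (r = 0.867), the last 3 with rho of only 0.51 to 0.587. Closest to Nr1i3 probe 2, after probe 1, were Gcfc2 (r = 0.922), Cdc5l, a splicing factor (r = 0.893), and Adgrl1, an adhesion receptor (r = 0.888). Within the genes here, Cyp2b9 and Cyp2b10 ran together at r = 0.94, Cyp2a4/5 probe 2 and Cyp2a12 at r = 0.54, and Nr1i3 probe 2 and Cyp2b10 at r = 0.31.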

How the data were processed

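Liver RNA of 12 groups with 1 array each was analysed. The deposited array files hold spot intensities that Feature Extraction (version 10.7.1.1 per the file headers, 9.5.1.1 per the submitters' processing notes) had background-subtracted and detrended, and per the file headers surrogate values were allowed for dim spots. The authors' series table gives normalized intensity on a linear scale. Arrays of a day share 1 distribution in it and the days do not, so it served as an alternative within a day only. Control spots and spots flagged as outliers were left out, and spots of a probe were averaged.

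Levels are log2 of the deposited processed intensity, relative to the 75th percentile of the array. The 29302 probes well above background on at least 2 of 12 arrays were fitted with limma (version 3.58.1, R version 4.3.3), and p-values were adjusted by Benjamini and Hochberg's method with a threshold of 0.05. DEN and G0s2 siRNA shared a fit over 12 arrays and ATRA used 8 arrays, both with the pair as a block, and day used 12 arrays with treatment as a block. A probe that was not well above background on 1 side gives a bound, from the higher of its own value and the lowest level well above background on that array. Fits were tested on simulated data.

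The genes, the lists and the tests were chosen with earlier results of these data known. Named genes are the members, the 4 most alike probes, and up to 4 genes of a list per comparison with the same sign in all pairs, well above background on at least 6 arrays, and the largest mean difference. For the siRNA arrays, A1bg, Adam11 and Cyp17a1 were named outside this rule, after their values were seen. Array names were updated through RefSeq accessions, and promoter windows come from RefSeq, GRCm38.p6. Their alignment used Biopython 1.88. Alternatives were quantile normalization, normexp background correction (offset 50), other filters, 1 probe per gene name, the authors' table, groups from the treatment characteristic, slide as a block, and leaving out each pair. Signals over background and the number of arrays limit the precision.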

Additional observations from a re-analysis of the deposited data

Results flagged for a closer look

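For Cyp2a4/5, Cyp2a12 and Nr1i3 an effect had opposite directions at day 7 and day 2, in every pair of each day. None of these differences between days was tested, because a day holds 1 or 2 pairs. With G0s2 siRNA against control siRNA, Cyp2a4/5 probe 1 was at 0.60 at day 7 and -2.90 at day 2, a change of 3.50 (log2), and probe 2 changed by 3.30. Cyp2a12 was at 0.90 at day 7 and -0.27 at day 2, a change of 1.17. Nr1i3 probe 1 changed by 0.94, with 0.10 at day 7 and -0.84 at day 2, and probe 2 by 0.85, with 0.11 at day 7 and -0.74 at day 2. With DEN, Nr1i3 probe 1 was at -0.94 and -0.24 at day 7 and at 0.53 and 0.13 at day 2, a change of -0.92 between the day means. No group had the 4 arrays that a search for an outlying array within a group needs.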

How the results depend on the processing

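The matched arrays were already the pairs of the fits, and the labels carry no replicate numbers for a further block. With normexp background correction 17 probes passed for DEN and 4 for G0s2 siRNA, against 0 in each, 3 rather than 6 probes were highest in control siRNA on both days, and the median count of probes 2-fold apart in a pair was 352.5, against 1196.5, and 552 among probes well above background on all 12 arrays. That filter leaves 1 member probe (Cyp2b10) 2-fold lower in both siRNA pairs. With slide as a random block 5632 probes passed between days, against 12763. Leaving out pairs gave 0 to 3 member probes 2-fold apart in all remaining DEN pairs (3 without DEN and vehicle of day 7) and 0 to 2 for ATRA (2 without ATRA and vehicle of day 7). These 3-pair counts are given without a share of all tested probes and cannot be read against one. For G0s2 siRNA it gave 5 lower without day 7 (1.54% of all tested probes) and 2 lower without day 2 (1.59%). Between days, Nr1i3 probe 2 passed under normexp (0.64) and without DEN (0.75). Cyp2a4/5 passed without control siRNA (1.57 for probe 1 and 1.44 for probe 2). Each treatment left out here was the only 1 in which the probe was lower at day 7, so these passes follow from that choice. The cause of these changes was not tested. Where the characteristic rather than the title grouped the day-7 arrays, the sign turned for the ATRA means of Cyp2a12 (0.14, against -0.65), Cyp2b10 (-0.39, against 0.21) and Nr1i3 probe 1 (-0.19, against 0.01), and for the DEN means of the Nr1i3 probes (0.18 and 0.07, against -0.13 and -0.21). Without the day-2 siRNA pair it turned for Cyp2a4/5 (0.60 and 0.62, against -1.15 and -1.03) and Nr1i3 (0.10 and 0.11, against -0.37 and -0.31), and without the day-7 pair for Cyp2a12 (-0.27, against 0.32). The other sign turns, on leaving out a pair or with quantile normalization, gave means between -0.12 and 0.14. None of these was a called result.

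The counts of the control siRNA, ATRA+DEN and sex-biased genes were added after the values were seen. Precision is limited by 1 array per group, by signal over background for Cyp2b9 and Cyp2b13, and by probes that read Cyp2a4 and Cyp2a5 together.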
